A study of Mus musculus with 3 samples.

Results

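The miR-17-92 and miR-106b-25 clusters are paralogous groups of microRNAs (miRNAs), and their mature products were examined in the small RNA of extracellular vesicles (EVs) from mouse testis. Members were chosen by name, with earlier results of these data known. They were miR-17, miR-18a, miR-19a, miR-19b, miR-20a and miR-92a for miR-17-92, and miR-106b, miR-93 and miR-25 for miR-106b-25, with both arms of each precursor. RefSeq and the catalogues together gave 19 such names, 13 for miR-17-92 and 6 for miR-106b-25. Of these, 16 were counted in at least 1 library, among 805 miRNA names counted in all. The names without a count were miR-19a-3p, miR-19b-2-5p and miR-92a-2-5p. Names were assigned to clusters by number alone, and miR-19b-2-5p and miR-92a-2-5p come only from precursors on chromosome X.

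EVs were isolated from the testes of C57/BL6 male mice at postnatal day 7 (PND7), and 3 small RNA libraries were sequenced. Each library came from EVs pooled from 10 mice and is labelled as a biological replicate. All EVs were treated with proteinase K, PMSF and RNase A before RNA extraction, and there was no comparison group. The sample titles carry the word "treated", while the source labels describe EVs from PND7 testis, so all 3 libraries were taken as replicates of the same condition. The EVs came from dissociated whole testis after removal of the tunica albuginea, so the releasing cell type is not known from the labels. As the EV samples are bulk, fewer EVs of a kind and less RNA per EV cannot be told apart.

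An miRNA precursor folds into a hairpin, from which Drosha and Dicer release a duplex of a 5p and a 3p arm, and the arm retained by Argonaute finds its targets mainly through its seed, here bases 2 to 8. miR-17-92 is transcribed from its own host gene, Mir17hg, under the control of c-Myc and E2F factors, and is known for promoting proliferation and for restraining the apoptosis factor Bim. miR-106b-25 lies within Mcm7, the gene of a subunit of the replicative helicase. In the testis, members of both clusters have been described in undifferentiated spermatogonia, and several are also abundant in blood cells. A further paralogous cluster on the X chromosome encodes miR-106a, miR-18b, miR-20b and miR-363 together with further copies of miR-19b and miR-92a.

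On GRCm38.p6, the same assembly as mm10, the 6 precursors of miR-17-92 lie at chr14:115043671-115044506 on the plus strand, within 836 bases. All 6 overlap an exon of Mir17hg, a long non-coding RNA gene at chr14:115042879-115046727. The 3 precursors of miR-106b-25 lie at chr5:138165321-138165818 on the minus strand, within 498 bases of Mcm7 at chr5:138164583-138172422. They fall in introns of both coding Mcm7 transcripts that span them, while Mir93 and Mir25 also overlap an exon of 1 of the 3 transcripts there, which is non-coding. The mature sequences of the X-linked cluster used here span chrX:52741697-52742563 on the minus strand. miR-19b-3p and miR-92a-3p have the same mature sequence on chromosomes 14 and X. The catalogues assigned both to the precursors on chromosome 14, and counts of these names cannot be divided between the loci.

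The arms that define the seed families are shown because the results are ordered by them. RefSeq mature sequences are written 5′ to 3′ with the seed in capitals. The miR-92 seed AUUGCAC is carried by 2 members, which part after the shared stretch that follows the seed.
miR-25-3p: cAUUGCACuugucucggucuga
miR-92a-3p: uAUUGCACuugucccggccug
The miR-17 seed AAAGUGC is carried by 4 members from both clusters.
miR-93-5p: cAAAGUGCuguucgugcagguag
miR-17-5p: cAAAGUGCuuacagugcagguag
miR-20a-5p: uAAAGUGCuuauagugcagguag
miR-106b-5p: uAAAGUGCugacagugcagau
The miR-18 and miR-19 seeds belong, among the members, to miR-17-92 alone.
miR-18a-5p: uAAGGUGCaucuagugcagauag
miR-19a-3p: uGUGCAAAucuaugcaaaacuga
miR-19b-3p: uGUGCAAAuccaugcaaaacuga
Over their full length, miR-17-5p and miR-20a-5p differ at 2 positions, miR-93-5p differs from each of them at 4 positions, and miR-19a-3p and miR-19b-3p differ at 1 position. How the authors placed reads between such near-identical names, and the mismatches they allowed, are not given in the sources used here, so the division of counts between these names is uncertain.

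The libraries held 25716952, 26002463 and 27939308 clean reads in replicates 1, 2 and 3. Each catalogue lists 2 entry types for miRNAs, mature and hairpin. The sources used here do not define the hairpin type, although its entries also carry arm names. Both types include predicted miRNAs, 156 names in all, which enter the totals, the ranks and the comparisons with all names. Mature entries held 870967, 1005836 and 966468 counts, and hairpin entries 493345, 612122 and 577529. Levels are given as CPM, the count per 1000000 counts of the same type in the library, without scaling by length since the compared sequences have similar lengths. In every pair of libraries, the counts differed by more than sampling noise, with a chi-square per degree of freedom of 96.6 to 187 over 272 mature names and 17.5 to 36.9 over the 5 members among them. Of the marker lists, gonadal somatic miRNAs summed to 21357 to 29846 CPM, led by miR-202-5p. Nearly all of it came from the arms of miR-202, while miR-140-3p had 78.9 ± 65.3 CPM (SD, n = 3). miR-34b-5p and miR-34c-5p, markers of meiotic and later germ cells, had 0 mature counts, although the 3p arms of both precursors were counted, and miR-449a-5p had 718 ± 314 CPM (SD, n = 3). Summed levels were 361 to 599 CPM for 4 of 5 red blood cell miRNAs counted, led by miR-451a at 411 ± 102 CPM (SD, n = 3), with miR-144-5p at 0. They were 336 to 628 CPM for all 4 leukocyte and platelet miRNAs, nearly all of it miR-150-5p at 442 ± 142 CPM. miR-142a-3p had 10, 2 and 1 mature counts there, miR-142a-5p 1, 2 and 3, and miR-223-3p 33, 1 and 21. Sums were 8790 to 17143 CPM for the 2 endothelial miRNAs, 572 to 1040 CPM for the 3 muscle miRNAs, and at most 0.994 CPM for the liver miRNA miR-122-5p. The part of blood or other cells in the members' levels was not tested.

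The members together took a small share of the mature counts, and 3 names made up most of it. They held 3603, 4909 and 3492 mature counts, which was 0.414%, 0.488% and 0.361% of the mature counts of replicates 1, 2 and 3, or 0.421% ± 0.0637 (SD, n = 3). The exact binomial 95% intervals, from 0.400% to 0.427%, 0.475% to 0.502% and 0.349% to 0.373%, did not overlap, and they cover counting error only. miR-25-3p, miR-93-5p and miR-92a-3p held 92.7% ± 1.81 of the members' mature counts. The other 11 names with mature counts had mean levels between 5.74 and 52.5 CPM. Mature counts were found for 14 names in at least 1 library and for 6 names in every library: these 3, miR-19b-3p, miR-20a-5p and miR-17-5p. Among all names, 604 had mature counts in at least 1 library and 327 in every library.

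**Figure D1:**
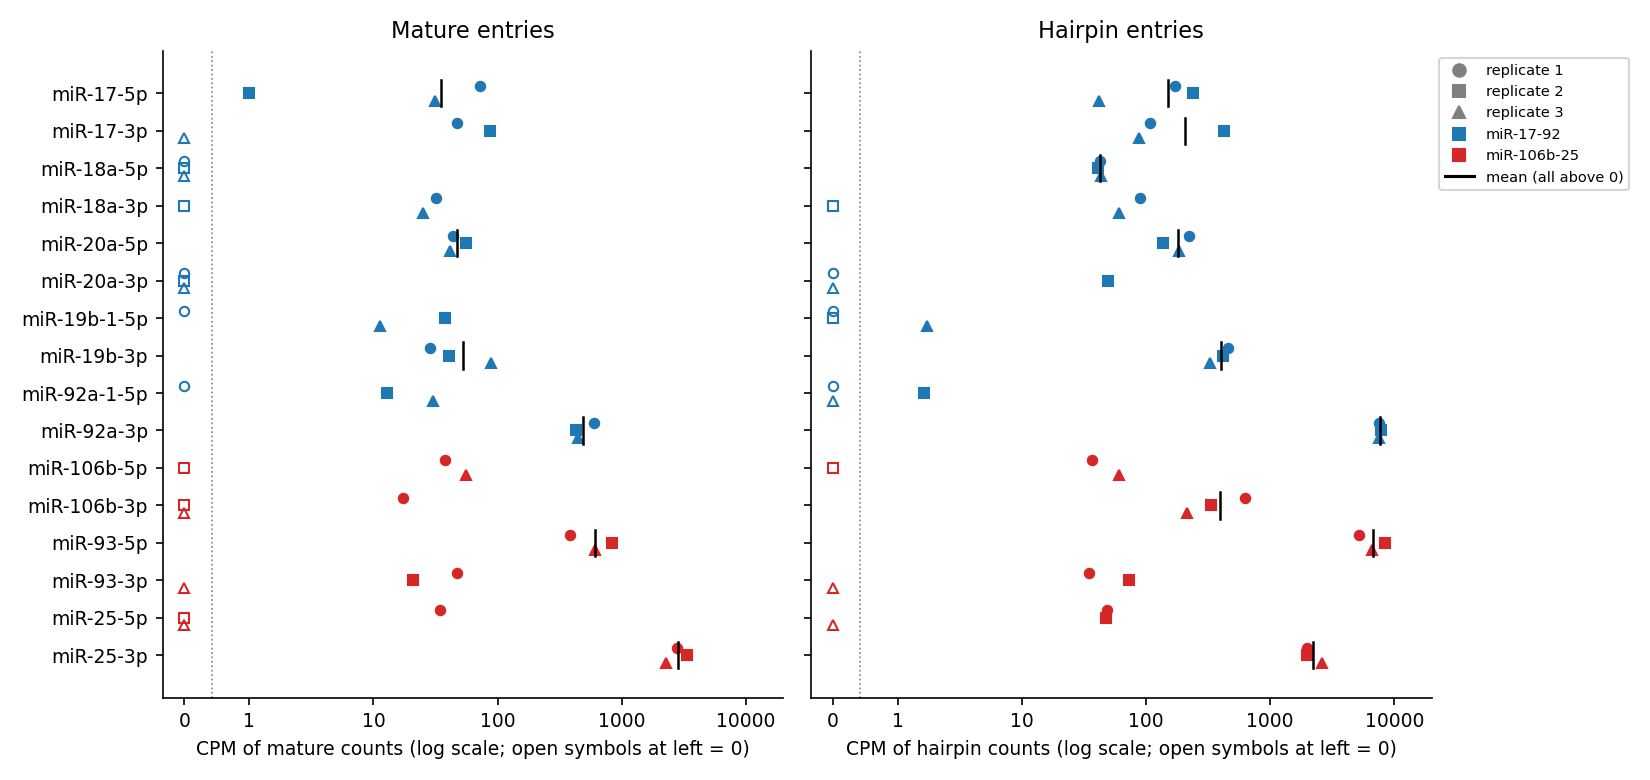
Level of each counted member in CPM of mature counts (left) and of hairpin counts (right) on log axes, with a symbol per replicate, blue for miR-17-92 and red for miR-106b-25. Open symbols left of the dotted line are counts of 0, and black bars mark means of members counted in every library. miR-25-3p stands highest among mature entries at 2813 CPM, whereas miR-92a-3p and miR-93-5p stand highest among hairpin entries at 7639 and 6727 CPM.

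The miR-92 seed family was the most abundant of the members. miR-25-3p, the 3p arm of the last precursor in the Mcm7 cluster, had 2796, 3364 and 2278 CPM of mature counts in replicates 1, 2 and 3, or 2813 ± 543 (SD, n = 3). It ranked 34 among 604 mature names. miR-92a-3p, the last miRNA of the miR-17-92 transcript, had 595, 428 and 444 CPM, or 489 ± 91.9, and ranked 98. miR-25-3p was higher than miR-92a-3p in all 3 libraries, and the libraries' ranges were far apart. Its level was 4.70, 7.85 and 5.13 times that of miR-92a-3p in replicates 1, 2 and 3, a mean log2 ratio of 2.52 ± 0.40 (SD, n = 3, exact two-sided sign-flip permutation p = 0.25). The design allows no p below 0.25 with 3 libraries, so this holds for each such test given here. Together the pair held 82.0%, 77.7% and 75.3% of the members' mature counts, or 78.3% ± 3.35.

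RefSeq lists 4 further mouse miRNAs with the miR-92 seed. miR-92b-3p, from a separate locus, had between 60 and 122 mature counts a library, highest in replicate 1 and lowest in replicate 3, or 103 ± 39.1 CPM. miR-32-5p had 1, 0 and 4 mature counts, miR-363-3p of the X-linked cluster 1, 0 and 0, and miR-367-3p none. miR-25-3p and miR-92a-3p accordingly held 97.0% ± 0.876 (SD, n = 3) of the mature counts with this seed.

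The miR-17 seed family was represented mainly by miR-93-5p. This member of the Mcm7 cluster had 386, 832 and 608 CPM of mature counts, or 609 ± 223 (SD, n = 3), and ranked 88. miR-20a-5p had 43.6, 55.7 and 41.4 CPM, or 46.9 ± 7.68. miR-93-5p was 8.84, 14.9 and 14.7 times higher than miR-20a-5p, a mean log2 ratio of 3.64 ± 0.43 (n = 3, exact permutation p = 0.25). miR-17-5p, the name-giving member, had 63, 1 and 30 mature counts, so that its mean of 34.8 ± 35.8 CPM carried an SD above the mean and was 16.0 CPM without replicate 1. miR-106b-5p had 33, 0 and 54 mature counts, or 31.3 ± 28.5 CPM. Replicate 2 thus held the highest mature counts of miR-93-5p and miR-20a-5p and at most 1 mature count of miR-17-5p and miR-106b-5p. Hairpin entries were ordered otherwise, with 84, 147 and 24 counts of miR-17-5p, highest in replicate 2, and 109, 84 and 107 of miR-20a-5p, lowest there. The family's share of the members' mature counts was 13.0%, 18.2% and 20.4%, or 17.2% ± 3.77. The other RefSeq names with this seed, miR-106a-5p, miR-20b-5p and miR-6383, had 0 mature counts.

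The miR-19 and miR-18 seed families were scarce. miR-19b-3p, of the family described as the main oncogenic component of the cluster in lymphoma models, had 25, 41 and 85 mature counts, or 28.7, 40.8 and 87.9 CPM (52.5 ± 31.3, SD, n = 3). miR-19a-3p, encoded by the same transcript, had no count of either type, and the limit that 0 mature counts allow is 3 counts, or 2.98 to 3.44 CPM. miR-18a-5p had 0 mature counts but 21, 25 and 25 hairpin counts, with a hairpin level of 42.2 ± 1.26 CPM. The miR-19 seed took 0.694%, 0.835% and 2.43% of the members' mature counts, or 1.32% ± 0.967, and 0.765% without replicate 3. The miR-18 seed took none, and the remaining 10 names, which are the other arms, 3.12% ± 1.24.

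**Figure D2:**
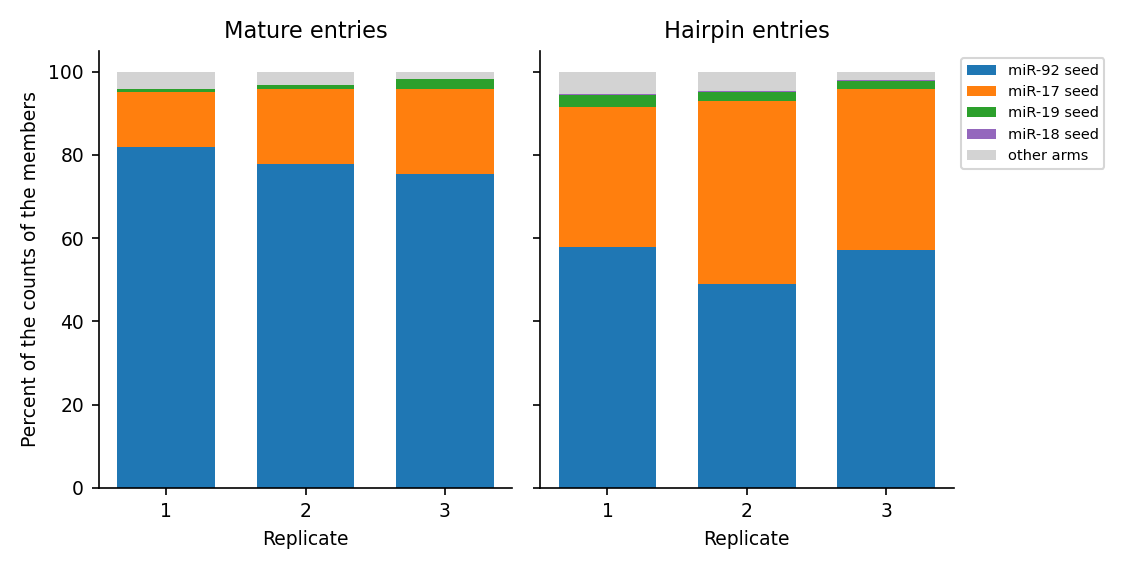
Percent of the members' counts held by each seed group in replicates 1, 2 and 3, for mature entries (left) and hairpin entries (right); each bar adds up to all counts of the 19 names. The miR-92 seed takes 75.3% to 82.0% of mature counts and the miR-17 seed 13.0% to 20.4%, while among hairpin entries the means are 54.6% and 38.9%.

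Ordered by mean mature CPM, the 6 names counted in every library ran from miR-25-3p through miR-93-5p, miR-92a-3p, miR-19b-3p and miR-20a-5p to miR-17-5p. Of the 5 pairs of neighbours in that order, 2 kept their order in every library, namely miR-25-3p over miR-93-5p and miR-92a-3p over miR-19b-3p. The log2 ratio of miR-25-3p over miR-93-5p was 2.26 ± 0.52 (SD, n = 3). miR-93-5p and miR-92a-3p were not told apart, with log2 ratios of -0.62, 0.96 and 0.45 in replicates 1, 2 and 3. miR-19b-3p and miR-20a-5p were not told apart among mature counts either, with a mean log2 ratio of 0.01 ± 0.94. With both entry types summed, miR-19b-3p was higher in every library, with a mean log2 ratio of 0.91 ± 0.16. The ratio of miR-20a-5p to miR-17-5p turned on the single count of miR-17-5p in replicate 2, and its log2 values were -0.73, 5.81 and 0.42.

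miR-17-92 had lower summed mature levels than miR-106b-25 in each library. The names of miR-17-92 summed to 819, 663 and 670 CPM in replicates 1, 2 and 3, and those of miR-106b-25 to 3318, 4217 and 2943 CPM. The ranges of the clusters did not overlap. The log2 ratio of miR-17-92 over miR-106b-25 was -2.02, -2.67 and -2.13, with a mean of -2.27 ± 0.35 (SD, n = 3, exact permutation p = 0.25), which is 4.84-fold lower. In the miR-106b-25 sum, miR-25-3p was the largest item, with 2796, 3364 and 2278 CPM in replicates 1, 2 and 3. The next item, miR-93-5p, had 386, 832 and 608 CPM. Without miR-25-3p, the miR-106b-25 sum was above that of miR-17-92 in replicate 2 only, so the order of the clusters rested on that name. In the miR-17-92 sum, miR-92a-3p was the largest item. Without it and the other names whose sequences also or only lie on chromosome X, the mean log2 ratio was -4.31. Among hairpin entries the clusters were not separated, with 8685 ± 374 CPM for miR-17-92 and 9414 ± 1464 CPM for miR-106b-25 and log2 ratios of 0.13, -0.26 and -0.19 (exact permutation p = 0.5). With both entry types summed, the log2 ratio was -0.62 ± 0.18 (n = 3, exact permutation p = 0.25).

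Counts of the same name were divided very unequally between the mature and hairpin entries, and the division differed between members. miR-92a-3p had 518, 431 and 429 mature counts and 3742, 4750 and 4373 hairpin counts, so that hairpin entries held 87.8%, 91.7% and 91.1% of them. miR-93-5p had 336, 837 and 588 mature counts and 2549, 5144 and 3818 hairpin counts, with hairpin shares of 88.4%, 86.0% and 86.7%. miR-25-3p went the other way, with 2435, 3384 and 2202 mature counts and 984, 1209 and 1509 hairpin counts, or hairpin shares of 28.8%, 26.3% and 40.7%. The log2 ratio of hairpin to mature counts was 3.22 ± 0.32 for miR-92a-3p, 2.75 ± 0.16 for miR-93-5p and -1.11 ± 0.50 for miR-25-3p (SD, n = 3, exact permutation p = 0.25 for each). These spreads are small beside the gap between miR-25-3p and the others. With each type scaled to its own total, the log2 ratio of miR-25-3p was -0.35 ± 0.50 (n = 3, exact permutation p = 0.5). Its direction was then lost in replicate 3, with 2278 mature and 2613 hairpin CPM. The scaled ratios of miR-92a-3p and miR-93-5p stayed positive, at 3.98 ± 0.27 and 3.51 ± 0.21. Scaled to its own type, miR-92a-3p ranked 98 among mature and 28 among hairpin names, and miR-25-3p 34 and 64.

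The other members leaned mostly towards hairpin entries. miR-106b-3p had 310, 204 and 124 hairpin counts against 15, 0 and 0 mature counts. miR-19b-3p had hairpin shares of 90.0%, 86.1% and 69.0%, and miR-20a-5p of 74.1%, 60.0% and 72.8%. Of the 9 members with at least 10 counts of both types together in every library, 7 had more hairpin than mature counts in all 3 libraries, against 36.7% of the 395 names that met the same minimum. miR-25-3p alone of the 9 had more mature counts in all libraries, against 35.4% of those 395 names, and miR-17-5p changed sides. The median hairpin share was 81.7% over the 9 members and 52.9% over all 395 names, whose quartiles were 29.0% and 76.9%. No test of this difference was made.

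**Figure D3:**
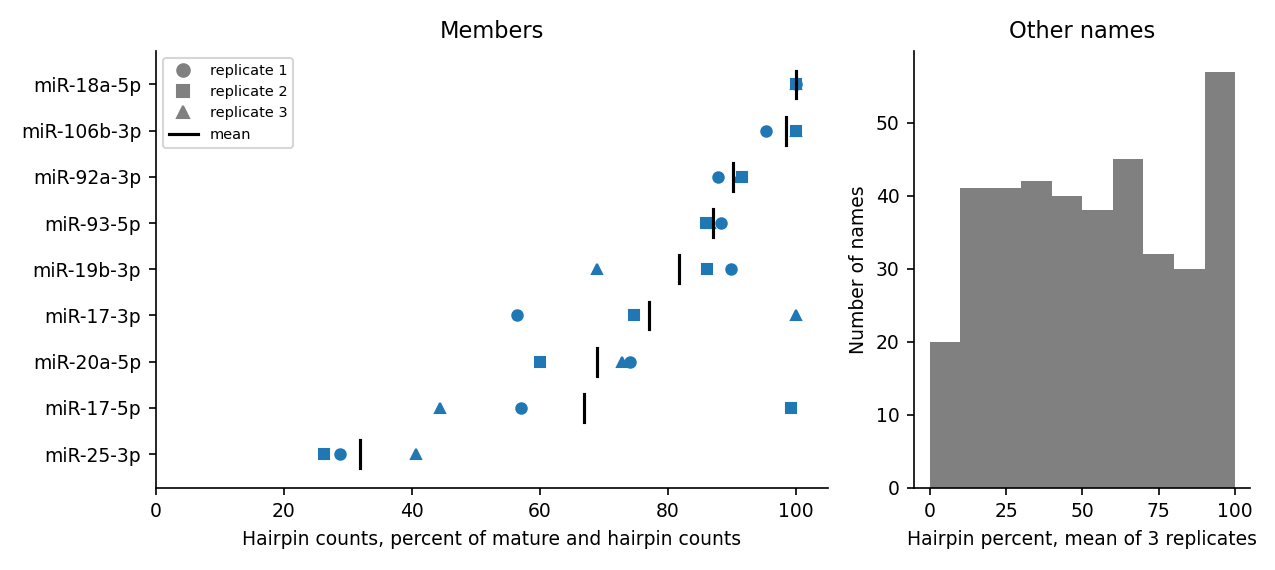
Left, hairpin counts as a percent of mature and hairpin counts for the 9 members that met the minimum of 10 counts, drawn as a symbol per replicate and a bar at the mean. Right, number of other names by the mean of the same percent. miR-25-3p lies lowest at 26.3% to 40.7%, and miR-92a-3p and miR-93-5p lie between 86.0% and 91.7%.

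The order of the leading members therefore depended on the entry type. Among hairpin entries, miR-25-3p was lower than miR-92a-3p by a log2 ratio of -1.81 ± 0.24 and lower than miR-93-5p by -1.60 ± 0.42 (n = 3, exact permutation p = 0.25 for each). With both types summed, miR-92a-3p had 3122, 3202 and 3110 CPM, miR-93-5p a mean of 2888 ± 792 CPM and miR-25-3p 2583 ± 228 CPM. In these sums miR-25-3p and miR-93-5p were not told apart, with a log2 ratio of -0.13 ± 0.33. The miR-92 seed then held 61.4% of the members' counts and the miR-17 seed 32.7%.

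The summed counts of both entry types varied little between libraries for miR-92a-3p and miR-19b-3p. miR-19b-3p had 28.7, 40.8 and 87.9 CPM among mature entries and 454, 417 and 327 CPM among hairpin entries, yet its summed level was 183, 183 and 177 CPM. miR-92a-3p was 20.7, 10.5 and 5.05 times miR-19b-3p among mature counts and 17.1, 17.5 and 17.5 times among summed counts, a mean log2 ratio of 4.12 ± 0.02 for the latter. Both names and their ratio were picked with the values in view. Their summed levels lay within 1.05-fold in all libraries, as did 1.27% of 395 names, a limit that was also set after the values were seen. Over the 9 members the median ratio of the highest to the lowest library was 1.25 for summed counts, and over all 395 names it was 1.81.

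Most precursors of the members gave counts mainly for a single arm, and the same was not counted over all precursors. The Mir93, Mir25 and Mir92-1 precursors are shown, since they carry the 3 leading members, with both arms in capitals, the 5p arm first.
Mir93: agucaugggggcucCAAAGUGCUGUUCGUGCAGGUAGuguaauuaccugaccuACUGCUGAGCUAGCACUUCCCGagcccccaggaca
Mir25: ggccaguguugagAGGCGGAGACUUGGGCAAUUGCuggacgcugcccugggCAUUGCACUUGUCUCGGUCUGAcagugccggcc
Mir92-1: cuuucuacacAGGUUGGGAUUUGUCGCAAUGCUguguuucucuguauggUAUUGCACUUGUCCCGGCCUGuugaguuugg
They lie at chr5:138165523-138165610, chr5:138165321-138165404 and chr14:115044427-115044506, in that order. The 5p arm of miR-93 held 98.0%, 98.9% and 100% of the summed counts of both types. The 5p arm of miR-25 held 1.55%, 0.627% and 0%, and that of miR-92a 0%, 0.269% and 0.600%. A share of 0% here is a count of 0, and its exact upper limit was at most 0.0994%. miR-19b was likewise counted mainly from its 3p arm, with 5p shares of 0%, 11.4% and 4.20%, and miR-20a from its 5p arm, with 100%, 82.4% and 100%.

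The arm balance of miR-17, miR-18a and miR-106b changed between libraries or entry types. The 5p arm of miR-17 held 61.0%, 30.0% and 51.4% of the summed counts in replicates 1, 2 and 3, and the exact 95% intervals of replicates 1 and 2, 54.5% to 67.2% and 26.0% to 34.3%, lay on opposite sides of an even split. miR-17-3p, the passenger arm in the usual description of this precursor, had 41, 87 and 0 mature counts and 53, 258 and 51 hairpin counts. For miR-106b, mature entries held 33, 0 and 54 counts of the 5p arm and 15, 0 and 0 of the 3p arm, while hairpin entries held 18, 0 and 35 of the 5p arm and 310, 204 and 124 of the 3p arm. The higher arm of miR-106b thus depended on the entry type. The 5p share of miR-18a was 22.6%, 100% and 29.8%, since replicate 2 had no count of miR-18a-3p. Among mature counts the same arm was higher in every library for 5 miRNAs, miR-20a, miR-19b, miR-92a, miR-93 and miR-25 (exact permutation p = 0.25 for each, n = 3). Without replicate 2 this count was 8. The share of all precursors with a steady arm was not determined, so the count does not set these clusters apart. For miR-19b, the mature counts of replicate 2 were nearly even, with 38 of the 5p and 41 of the 3p arm, a 5p share of 48.1% whose exact interval of 36.7% to 59.6% spans an even split.

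**Figure D4:**
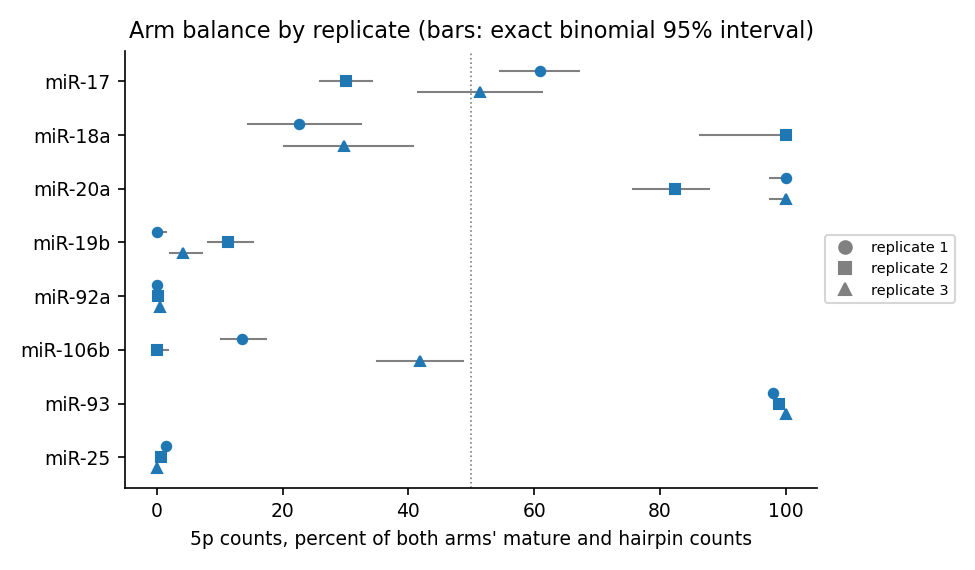
Counts of the 5p arm as a percent of both arms' mature and hairpin counts, with a symbol per replicate and exact binomial 95% intervals as bars; the dotted line marks equal arms. miR-93 lies at 98.0% or above and miR-25 and miR-92a at 1.55% or below in every replicate, whereas miR-17 spreads from 30.0% to 61.0%.

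Several less abundant members had mature counts in some libraries and none in others. miR-25-5p had 30, 0 and 0 mature counts, miR-93-3p 41, 21 and 0, miR-18a-3p 28, 0 and 24, and miR-92a-1-5p 0, 13 and 29. miR-19b-1-5p had 0, 38 and 11. The 34.4 CPM of miR-25-5p in replicate 1 stands against limits of 2.98 and 3.10 CPM for the mature counts of 0 in replicates 2 and 3. Such limits take reads as independent, and PCR copies were not told apart, so chance is not excluded. The hairpin counts of miR-25-5p were 24, 29 and 0, so it was counted in replicate 2 through that entry type. miR-93-3p had 17, 45 and 0 hairpin counts and miR-18a-3p 44, 0 and 35, with 0 in the same library as their mature entries. Of the 13 members with at least 20 mature counts in a library, 7 had 0 in another, against 34.0% of the 456 names with that minimum. With both types summed it was 7 of 16 members, against 31.8% of 635 names. The minimum of 20 was set after the values were seen. Mature entries were found for 12, 10 and 10 of the names in replicates 1, 2 and 3 and hairpin entries for 13, 13 and 12, so no library lacked the members as a whole.

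Among mature entries, the X-linked paralogs were near the limit of detection. miR-106a, miR-18b, miR-20b and miR-363, with 7 mature names, had 1, 0 and 0 mature counts in replicates 1, 2 and 3, all of miR-363-3p. The 7 names of miR-17, miR-18a, miR-20a and miR-19a had 170, 144 and 94. Over the libraries, X-linked names held 1 of 409 such counts, or 0.244%, with an exact binomial 95% interval from 0.00619% to 1.35%. Among hairpin entries they held 61 of 1158 counts, or 5.27% (exact interval 4.05% to 6.72%), from 24, 36 and 1 counts per library. Those were 24 counts of miR-20b-5p in replicate 1, 23 of miR-18b-5p in replicate 2, and 13 and 1 of miR-363-3p in replicates 2 and 3. miR-106a-5p, which differs from miR-17-5p at 1 position, had none of either type.

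The names whose mature levels lay closest to those of miR-25-3p over the 3 libraries, among 303 names, were miR-23b-3p, miR-125b-5p and miR-100-5p, with a root mean square difference of 0.15, 0.22 and 0.27 in log2 CPM. Over the 16 counted members, GC content and summed level had a Spearman's rho of 0.22, and over the 14 with mature counts, GC content and mature level had a rho of -0.35. Over the 9 arms that carry the seeds, with GC from 34.8% for miR-19a-3p to 57.1% for miR-92a-3p, the rho with summed level was 0.73. With mature level it was 0.63. These 9 arms include miR-19a-3p, which had no count of either type, whereas the other sets hold counted names only. Across 541 names with a RefSeq sequence the rho was -0.06, and these points share libraries and, within families, sequence. The motifs GGAG and CCCU, described for RNA sorted into EVs, were searched on the mature strand only. GGAG was present in miR-25-5p alone and CCCU in miR-18a-3p alone among the 19 names, against 14.2% and 11.4% of 1679 RefSeq mature sequences. None of the 6 names counted as mature in every library held either motif. The share among all names counted in every library was not determined, and 6 names are too few to show a lack.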

How the data were processed

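Small RNA libraries of EVs from PND7 mouse testis were analysed from the deposited catalogues. Per the study's methods, the authors sequenced on BGISEQ-500, removed low-quality reads, mapped clean reads with Bowtie2 and cmsearch, and gave each read a single class, with miRBase first. The labels name mm10 and Bowtie2; versions are not given in the sources used here. The authors deposited raw read counts per entry and per class. Not used were the deposited percent per class and a column headed as molecular identifiers, which on the rows of small RNAs held CPM of clean reads.

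Members and lists were chosen with earlier results of these data known. Named were all members, the X-linked paralogs, other names with the same seeds, the 3 names nearest to the leading member, and marker miRNAs. Counts were scaled to CPM of mature, hairpin or both counts of each library. Ratios were formed within libraries, with a count of 0 set to 3 counts, and tested with the exact two-sided sign-flip permutation test, whose smallest p is 0.25. Since the X-linked names had 0 mature counts in 2 libraries, the planned log2 ratio was replaced by a pooled percent with an exact (Clopper-Pearson) 95% interval. Intervals cover counting error only, since PCR copies were not told apart. The chi-square statistic and the ratio test were tested on simulated data. Alternatives changed the entry type, scaling, count minimum, pooling, the arms or shared names included, and the replicates. All 19 names matched RefSeq by name (GRCm38.p6), as did 84.4% of the 524 counted mature names that are not predicted. Computations used SciPy 1.17.1, numpy 2.4.6 and pandas 2.3.3 under Python 3.11.15, and plots matplotlib 3.10.9.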

Additional observations from a re-analysis of the deposited data

Results flagged for a closer look

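Reads of related precursors were also listed among Rfam families, a class outside the mature and hairpin entries, above the 3 counts that a count of 0 allows. The mir-17 family had 142, 194 and 146 reads in replicates 1, 2 and 3, the mir-19 family 51, 51 and 34, and the mir-92 family 655, 1097 and 898. The mir-25 family had 0, 11 and 0 reads and the mir-363 family 12, 0 and 0. These reads carry no member or arm name and enter no value of the report. Their origin among the members was not tested.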

How the results depend on the processing

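With 3 libraries of a single condition, no test could pass 0.05, and at this depth a mature count of 0 allows up to 2.98 to 3.44 CPM. The mean log2 ratio of miR-17-92 to miR-106b-25 stayed negative under all alternatives tried, none of which left out miR-25-3p. The order of the mature sums rested on that name. The ratio ran from -4.31 without the names shared with the X-linked cluster to -0.11 for hairpin entries, where replicate 1 was positive at 0.13. For hairpin entries and for both types summed, the members' share was 1.81% and 0.938%, the miR-17 seed share 38.9% and 32.7%, the miR-18 seed share 0.235% and 0.169%, the miR-92 seed share 54.6% and 61.4%, and the X-linked percent 5.27% and 3.96%. With presence in any library required, 14 members had mature counts. When each replicate was left out in turn, the number of miRNAs with a steady arm ranged from 5 to 8, the X-linked percent from 0 to 0.377 (0 without replicate 1), and the log2 arm ratio of miR-17, -0.83 with all libraries, from -2.91 to 1.97, positive without replicate 2. Without replicate 3 the miR-19 seed share was 0.765% and mature miR-19b-3p 34.7 CPM, and without replicate 1 mature miR-17-5p was 16.0 CPM. Causes were not tested. No paired analysis was possible because there is a single group, so no samples could be paired between groups; ratios were formed between names within a library.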
